A study of Danio rerio with 27 samples.

Results

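Cells sorted from the gill of spic mutant zebrafish, called progenitors in the deposited data, were compared with cells sorted by the same gate from the gill of their siblings. A shared gate does not show that both genotypes gave the same kind of cell. This comparison used 13 of the 27 libraries of the study, namely 8 libraries of mutant gill and 5 of sibling gill, chosen by the tissue and genotype that the labels give; the other 14 libraries came from epidermis. Both genotypes were adult fish of the line Tg(spic:EGFP; mpeg1:DsRedx), in which EGFP is driven by the spic promoter and DsRedx by the promoter of the macrophage gene mpeg1. Each library was made from 30 cells sorted as EGFP-positive and DsRedx-negative, with Smart-seq2 chemistry and 23 cycles of amplification. The labels name neither the mutant allele nor the genotype of the siblings (wild type or heterozygous). They also do not say how many fish were used per genotype. The p-values therefore compare libraries, and some of the spread between libraries may be technical. Mutant cells were gated on a reporter of the very gene that is mutated, so the population described is the one that still carried EGFP.

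Metaphocytes are myeloid-like cells of zebrafish skin, gill and gut that do not arise from blood stem cells. They take up material from outside the epithelium and pass it on to immune cells. Spic is a transcription factor of the Ets family, related to Spi1 (PU.1), the master factor of myeloid cells, and in mouse it is required for the macrophages that recycle iron from red blood cells. Fish gills also hold neuroepithelial cells, which contain serotonin, are innervated and are known as oxygen sensors.

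Levels are given as TPM, a share of a library's transcripts corrected for gene length. TPM keeps no depth, so the number of reads behind a value is unknown. Between 6755 and 10633 genes reached 1 TPM in mutant libraries (median 8925), and between 8407 and 10655 did in sibling libraries (median 9226). Mutant gill 8 stood apart with the fewest genes. Mutant gill 3 carried the strongest ionocyte signal, a summed marker level of 16575 TPM, with the ionocyte factor foxi3a at 1578 TPM. Mutant gill 6 was the only library with spi1b, the paralogue of spi1a, above 1 TPM, at 74.0 TPM. Correlations between libraries across genes lay between 0.439 and 0.549 for pairs of mutant libraries and between 0.575 and 0.679 for pairs of sibling libraries. Without mutant gill 3, 6 and 8 together, an alternative chosen after seeing the data, 557 genes passed, against 595 with all 13 libraries. Of the 557, 418 were among the 595.

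Of 10419 genes tested, 595 differed between mutant and sibling gill (5.71%; limma, Benjamini-Hochberg adjusted p under 0.05 on log2(TPM + 1)). Of these, 231 were higher (2.22%) and 364 lower (3.49%) in mutants, so that 38.8% of the calls were higher. With the medians of the libraries made equal, 588 passed, 448 of them among the 595, and 63.1% of the 588 were higher. Over all genes the median was then 0.40 on the log2 scale, against -0.05 as deposited. Directions below are on the TPM scale as deposited. All mutant libraries lay beyond all sibling libraries for 406 genes (3.90%), above them for 1.96% of the genes tested and below them for 1.94%. In bulk libraries of sorted cells, fewer cells of a type and less RNA per cell cannot be told apart. Of the calls, 151 were genes with clone-style names, which are not described one by one.

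Among the 15 named genes with the largest falls were the transcription factor gene spi1a, the oxidase subunit gene ncf1 and the cytokine genes il12bb, tnfb and il1fma. Among the 15 with the largest rises were tph1a, the first enzyme of serotonin synthesis, penka, the precursor of enkephalin peptides, and the transcription factor genes tbx1 and drgx. The counts of each gene list below are to be read beside 2.22% higher and 3.49% lower over all genes tested. Lists were chosen with earlier results of these data known, so their counts are descriptive and no test. Members below the filter (1 TPM in at least 5 of the 13 gill libraries) were not tested. A gene under 1 TPM in any of the 5 siblings would not have passed without mutant libraries. Among raised genes this holds for penka, tspan9b, gramd2aa, pdia2, atp6v0cb and gng13b, and for others below.

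**Figure D1:**
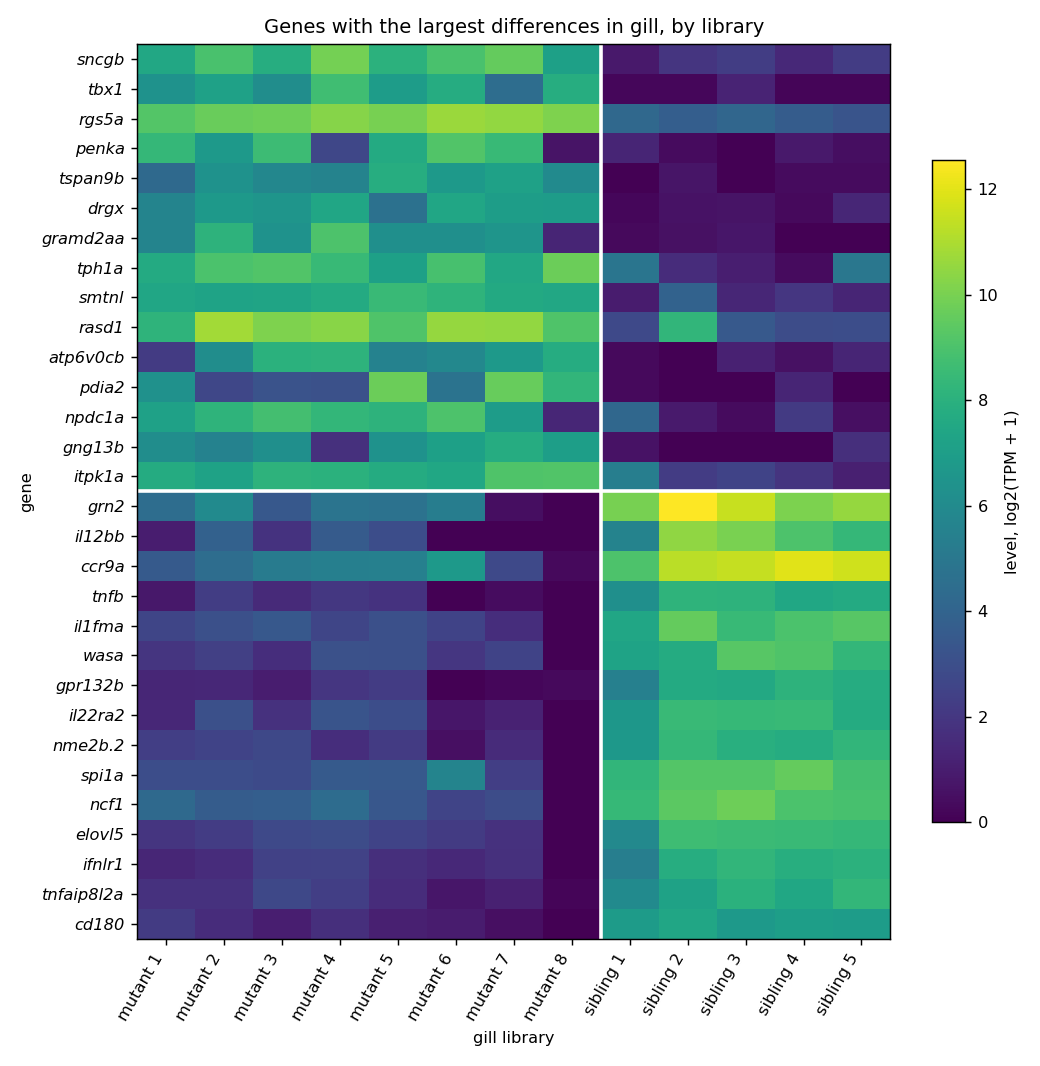
Level of the 30 named genes with the largest differences, as log2(TPM + 1), in each of the 13 gill libraries (8 mutant columns left, 5 sibling columns right; genes higher in mutants above, lower below). For each of the 15 genes of the lower block every mutant column is below every sibling column, with ccr9a reaching 106 TPM in mutant gill 6, and penka is at 0.602 TPM in mutant gill 8 while its mutant median is 269 TPM.

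The targeted gene, spic, was read first. It stood at 2.92 to 53.3 TPM in mutant gill (median 12.6, n = 8), against 140.4, 244, 263, 317 and 499.8 TPM in the 5 sibling libraries. Every mutant library was below every sibling library, and the mutant mean was 6.42% of the sibling mean. The log2 change was -4.28 (two-sided exact permutation test over 1287 regroupings, p = 0.000777, the smallest they can give), and it lay between -4.56 and -4.02 with each library left out in turn. A transcript level does not show what protein remains, and since other genes fell further, the level alone does not check the genotype label.

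A part of the myeloid transcription factors was called lower. Of 15 tested, 3 fell and none rose, namely spi1a, ikzf1 and spic, with a list median of -1.08 on the log2 scale against -0.05 over all genes. The gene spi1a, which encodes a PU.1 factor of myeloid cells, stood at 0 to 48.9 TPM in mutant gill (median 6.71), against 308, 592, 593, 755 and 446 TPM in siblings (log2 change -6.05 ± 0.80 SE, limma adjusted p = 4.80e-05). Mutant gill 6 was the highest mutant library and still lay far below the lowest sibling. For ikzf1, the Ikaros factor of blood cells, the values were 0 to 1.69 TPM in mutants (median 0.911), against 78.6, 73.6, 41.6, 155 and 77.0 TPM in siblings (log2 change -5.51 ± 0.90 SE, limma adjusted p = 0.000504), and the groups lay far apart. The gene ikzf1 would not have passed the filter without the siblings. The other 12 did not pass, among them the C/EBP gene cebpb, named after its values were seen, at 33.4 to 1631 TPM in mutants and 211 to 2088 TPM in siblings.

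Of the 5 tested subunits of the phagocyte NADPH oxidase, the enzyme that makes superoxide against microbes, 3 fell (list median -2.85). The organising subunit gene ncf1 stood at 0 to 20.6 TPM in mutants (median 10.5), against 339, 680.1, 875, 513 and 483 TPM in siblings (log2 change -5.98 ± 0.77 SE, limma adjusted p = 3.43e-05). No mutant value came near a sibling value. The small GTPase gene rac2 had 0.0882 to 52.4 TPM in mutants and 62.2 to 161 TPM in siblings (log2 change -3.72 ± 0.97 SE, limma adjusted p = 0.0232). The membrane subunit gene cyba had 2.93 to 487 TPM in mutants and 476 to 1044 TPM in siblings (log2 change -2.85 ± 0.79 SE, limma adjusted p = 0.0338). Both calls rest on single libraries. The call of rac2 was lost without any of sibling gill 2, 3, 4 or 5 (highest limma adjusted p = 0.0756, without sibling gill 3). That of cyba was lost without any of mutant gill 6 or sibling gill 1, 3, 4 or 5 (highest limma adjusted p = 0.0980, without sibling gill 4). The count of fallen subunits was 1 without sibling gill 3, 4 or 5.

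Macrophage genes that the sorted sibling cells expressed also fell, 5 of 10 tested, with a list median of -2.22. The largest fall of any named gene was that of grn2, a granulin gene: 0 to 63.2 TPM in mutants (median 23.3), against 1008, 6007, 2900, 1069 and 1515 TPM in siblings (log2 change -7.27 ± 0.90 SE, limma adjusted p = 2.59e-05). Sibling gill 2 was the highest by far, and the highest mutant library was still far below the lowest sibling. A second granulin gene, grn1, had 0 to 1.58 TPM in mutants (median 0.297), against 17.8, 65.0, 213, 40.9 and 70.9 TPM in siblings. It was under 1 TPM in most mutant libraries and passed the filter only through the siblings. The gene mpeg1.1, which encodes a pore-forming protein of macrophages, had 0 to 3.56 TPM in mutants (median 1.57), against 12.2, 116, 135, 140.1 and 113 TPM in siblings (log2 change -5.01 ± 0.95 SE, limma adjusted p = 0.00201). Sibling gill 1 was the lowest sibling for both mpeg1.1 and grn1, and neither gene's groups overlapped. The siblings therefore held mpeg1.1 transcripts although the sort excluded cells bright for the mpeg1 reporter; the paralogue mpeg1.2 reached 1 TPM in mutant gill 3 alone, at 35.1 TPM. For cd83, a surface protein of mature antigen-presenting cells in mammals, both genotypes kept high levels, 301 to 774 TPM in mutants (median 514) and 929.7, 1882, 1362, 4651 and 3843 TPM in siblings (log2 change -2.12 ± 0.40 SE, limma adjusted p = 0.00168), with no overlap. The fifth, ctss2.1, a cathepsin S gene named after its values were seen, overlapped between the groups. Without the variance trend, 3 of the 10 passed and cd83 did not (limma adjusted p = 0.0599). Of the defining macrophage genes, marco and csf1ra were at 0 in all 13 libraries, mfap4 reached 7.17 TPM in mutant gill 2, and csf1rb was at 0.0785 TPM in sibling gill 1 and 0 elsewhere.

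Genes of the leukocyte cytoskeleton fell in 11 of 20 tested members, none rose, and the list median was -3.10. The list holds the actin-capping gene capgb, which fell, but not its paralogue capga, which rose and is given under other observations. Without sibling gill 4, 7 of the members passed, and 6 did in the exact rank sum test. The gene tmsb4x, which encodes thymosin beta 4, a protein that holds actin monomers, had 1445 to 5831 TPM in mutants (median 2280), against 7347, 16055, 13659, 18061 and 13700 TPM in siblings (log2 change -2.44 ± 0.27 SE, limma adjusted p = 8.48e-06). It stayed abundant in mutants but no mutant library reached a sibling level. The actin nucleation gene wasa, a homologue of the Wiskott-Aldrich syndrome protein, stood at 0 to 7.74 TPM in mutants (median 3.57), against 154, 212, 630.4, 553 and 320.2 TPM in siblings (log2 change -6.27 ± 0.81 SE, limma adjusted p = 3.68e-05). Its target is the Arp2/3 complex, of which arpc1b, a subunit of blood cells, had 0 to 54.6 TPM in mutants (median 11.9), against 526, 553, 1053, 817 and 324 TPM in siblings (log2 change -5.71 ± 0.81 SE, limma adjusted p = 9.71e-05). Neither gene's groups overlapped. The lysosomal leukocyte gene laptm5 behaved alike, at 0 to 91.1 TPM in mutants (median 4.63) and 139.7 to 496 TPM in siblings.

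Intracellular mediators of leukocyte receptors fell in 7 of 15 tested members, with a list median of -2.89. The adaptor gene card9, which couples fungal recognition receptors to NF-kB in mammals, had 0 to 1.85 TPM in mutants (median 0.487), against 38.0, 65.7, 101, 124 and 105 TPM in siblings (log2 change -5.71 ± 0.91 SE, limma adjusted p = 0.000357). The gene pik3ap1, an adaptor to PI3 kinase, had 0 to 7.47 TPM in mutants (median 0.436) and 39.1 to 100.1 TPM in siblings. The groups of card9 and pik3ap1 did not overlap. Both genes were under 1 TPM in most mutant libraries and passed the filter only through the siblings, so this is no separate support. The groups of the adaptor genes lcp2a and sla1a overlapped. The gene lcp2a reached 93.4 TPM in mutant gill 3, against a sibling range of 74.9 to 276 TPM, and sla1a was at 1.35 TPM in sibling gill 1. The exact rank sum test called 2 of the list lower, and neither lcp2a (adjusted p = 0.0569) nor sla1a (adjusted p = 0.0845) was among them; without the filter on low values 4 were called. The 1 member higher in mutants, the catalytic PI3 kinase gene pik3cg, was named after its values were seen, at 64.9 to 245 TPM in mutants and 14.3 to 74.3 TPM in siblings (log2 change 2.13 ± 0.59 SE, limma adjusted p = 0.0353). No member of the list was called higher without any of mutant gill 2, 4 or 7 or sibling gill 2, 3, 4 or 5, so that call depends on single libraries.

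Cytokine and cytokine receptor genes fell in 7 of 17 tested and rose in 1, with a list median of -1.48. The gene il12bb, a beta chain of interleukin 12, had 0 to 13.7 TPM in mutants (median 1.76), against 47.5, 1408, 1044, 532 and 332 TPM in siblings (log2 change -7.05 ± 1.01 SE, limma adjusted p = 0.000111). The tumour necrosis factor gene tnfb had 0 to 3.79 TPM in mutants (median 1.29), against 76.5, 284, 278, 175 and 206 TPM in siblings (log2 change -6.43 ± 0.90 SE, limma adjusted p = 9.13e-05). For il1fma, an interleukin 1 family ligand, the values were 0 to 10.1 TPM in mutants (median 5.2), against 169, 764, 357, 513 and 629 TPM in siblings (log2 change -6.37 ± 0.79 SE, limma adjusted p = 2.59e-05). Sibling gill 1 was the lowest sibling for all 3, and no mutant value reached it. The genes il12bb and tnfb would not have passed the filter without the siblings. On the receptor side, il22ra2, which in mammals encodes a soluble binding protein of interleukin 22, had 0 to 8.57 TPM in mutants (median 2.06), against 97.4, 362, 344, 348 and 207 TPM in siblings. The lambda interferon receptor gene ifnlr1 is not on this list and is named for its large fall. It had 0 to 4.49 TPM in mutants (median 2.17), against 40, 223, 303, 234 and 271 TPM in siblings. Mutant and sibling values were far apart for both receptor genes, with log2 changes of -6.13 ± 0.87 SE for il22ra2 (limma adjusted p = 9.71e-05) and -5.88 ± 0.88 SE for ifnlr1 (limma adjusted p = 0.000185). The member that rose was il13ra1, an interleukin 13 receptor chain named after its values were seen, at 203 to 1129 TPM in mutants (median 538), against 138, 58.6, 43.3, 23.3 and 34.8 TPM in siblings (log2 change 3.37 ± 0.51 SE, limma adjusted p = 0.000198), with no overlap.

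Receptors for chemokines and related ligands fell in 5 of 10 tested (list median -3.10), and in 3 without sibling gill 3, 4 or 5 or mutant gill 2, in the exact rank sum test, or with library medians made equal. The chemokine receptor gene ccr9a had 0.233 to 106 TPM in mutants (median 28.7), against 520.2, 2404, 2788, 4027 and 3178 TPM in siblings (log2 change -6.82 ± 0.84 SE, limma adjusted p = 2.35e-05). Sibling gill 1 was again the lowest sibling, far above the highest mutant. The receptor gene cxcr4b, whose ligand Cxcl12 guides migrating cells, remained expressed at 202 to 1451 TPM in mutants (median 839), against 2462, 6069, 8534, 10419 and 6933 TPM in siblings (log2 change -3.20 ± 0.45 SE, limma adjusted p = 9.61e-05). The G-protein-coupled receptor gene gpr132b had 0 to 3.75 TPM in mutants (median 1.29), against 42.5, 203, 189.8, 278 and 219 TPM in siblings (log2 change -6.25 ± 0.92 SE, limma adjusted p = 0.000153). None of these 3 genes had overlapping groups. The other called members, ccr6a and gpr183a (the last named after its values were seen), overlapped. The gene ccr6a was at 0.554 and 1.62 TPM in sibling gill 1 and 2, and its call was lost without mutant gill 2 or sibling gill 3, 4 or 5 (highest limma adjusted p = 0.0741, without sibling gill 4).

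The remaining 4 of the 15 genes with the largest falls have other roles. The nucleoside diphosphate kinase gene nme2b.2 had 0 to 5.67 TPM in mutants (median 2.85), against 104, 329.5, 244, 215 and 301 TPM in siblings (log2 change -6.11 ± 0.85 SE, limma adjusted p = 8.57e-05). The fatty acid elongase gene elovl5 had 0 to 6.65 TPM in mutants (median 3.60), against 58.4, 398, 378, 359 and 322 TPM in siblings (log2 change -5.94 ± 0.84 SE, limma adjusted p = 9.71e-05). Sibling gill 1 stood apart as the lowest sibling for both. The gene tnfaip8l2a, whose mammalian homologue restrains innate signalling, had 0.144 to 5.54 TPM in mutants (median 2.24) and 62.8 to 313 TPM in siblings (log2 change -5.86 ± 0.87 SE, limma adjusted p = 0.00017). The Toll-like surface protein gene cd180 had 0 to 3.55 TPM in mutants (median 1.11), against 116, 169, 105, 132 and 122 TPM in siblings (log2 change -5.86 ± 0.88 SE, limma adjusted p = 0.000186), the most even sibling values of the 4. Groups did not overlap for any of them.

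Of the iron and heme genes, 2 of 9 fell and 1 rose (list median -0.56). Ferritin stores iron, and its heavy chain gene fth1a had 582 to 1249 TPM in mutants (median 889), against 4076, 9200, 9604, 12801 and 7465 TPM in siblings (log2 change -3.23 ± 0.28 SE, limma adjusted p = 1.51e-07). The transferrin receptor gene tfr1b, an importer of iron, had 0.977 to 60.3 TPM in mutants (median 12.1), against 176, 131, 403, 464 and 314 TPM in siblings (log2 change -4.44 ± 0.85 SE, limma adjusted p = 0.00204). The storage gene fth1a and the uptake gene tfr1b were thus both lower, with no overlap for either. Of the 9 tested members, 6 were not called. The ferritin-like gene fthl28 went the other way, at 21.6 to 955 TPM in mutants (median 444), against 61.3, 25.5, 10.9, 11.0 and 151 TPM in siblings (log2 change 3.18 ± 0.83 SE, limma adjusted p = 0.0246), with overlap. Its call was lost without sibling gill 2, 3 or 4 (highest limma adjusted p = 0.0864, without sibling gill 4). Reads of ferritin paralogues that are near copies may have been shared between them, which was not tested.

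Antigen presentation and lysosome genes had few calls: 1 of 18 and 1 of 38 were higher in mutants, none was lower, and the list medians were -0.01 and -0.06. Shares from a single call are not read as a result about either list. The invariant chain gene cd74a, the partner of MHC class II, had 1160 to 3838 TPM in mutants (median 2014), against 1978, 3709, 3570, 3347 and 3102 TPM in siblings (log2 change -0.56 ± 0.28 SE, limma adjusted p = 0.283). Its paralogue cd74b, named after its values were seen, had 2296 to 5598 TPM in mutants (median 3119), against 2484, 3744, 2143, 2894 and 2482 TPM in siblings (log2 change 0.37 ± 0.25 SE, limma adjusted p = 0.455). Both invariant chain genes were abundant in every library and overlapped between genotypes. The genes psmb13a and b2ml were not called either (log2 changes 1.60 and 0.62, limma adjusted p = 0.202 and 0.311), and their groups overlapped. The 1 called antigen presentation gene, b2m, the MHC class I light chain, had 2973 to 5517 TPM in mutants and 1480 to 2932 TPM in siblings (log2 change 0.85 ± 0.23 SE, limma adjusted p = 0.0316), a call that was lost without any of mutant gill 4, 5 or 7 or sibling gill 2, 3 or 4 (highest limma adjusted p = 0.110, without sibling gill 3). The 1 called lysosomal gene, the proton pump subunit gene atp6v0cb, had 3.55 to 280.0 TPM in mutants (median 90.5), against 0.259, 0, 1.2, 0.4933 and 1.46 TPM in siblings (log2 change 5.64 ± 0.98 SE, limma adjusted p = 0.00101), with mutant gill 1 the lowest mutant and still above every sibling.

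**Figure D2:**
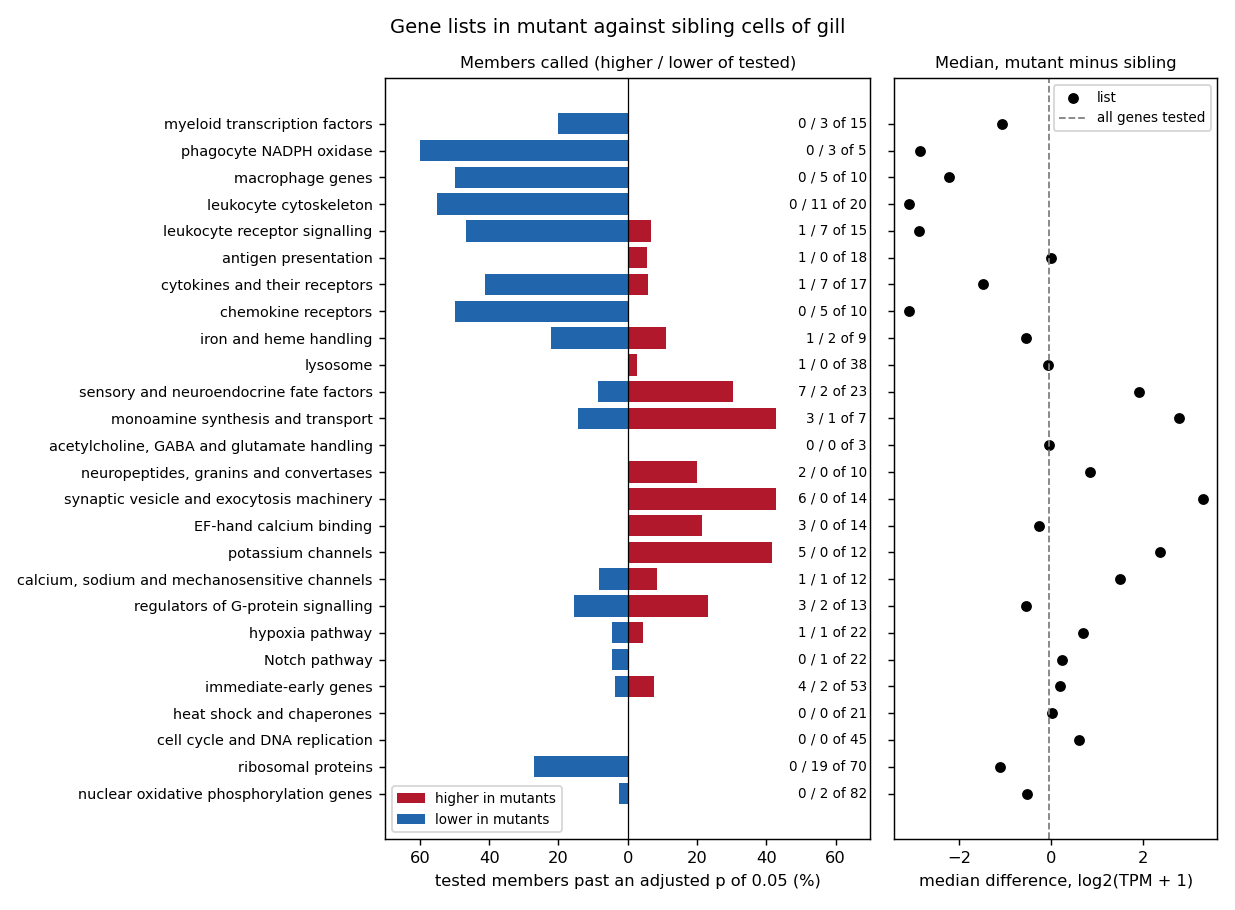
Share of the tested members of each of 26 gene lists that passed an adjusted p of 0.05, higher (red, right) and lower (blue, left) in mutant than in sibling gill, with the counts at the right edge; the second panel gives each list's median log2 difference, with a dashed line at the median of all genes, -0.05. Myeloid, leukocyte and cytokine lists lie left (11 of 20 cytoskeleton members lower), and synaptic vesicle, monoamine and potassium channel lists lie right (6 of 14 vesicle members higher). The lists were chosen with earlier results of these data known.

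Transcription factors of sensory and neuroendocrine fate rose in 7 of 23 tested members and fell in 2, with a list median of 1.92. Without sibling gill 4, 5 were called higher. Of 48 members in the table, those not tested were below the filter. The T-box gene tbx1, a factor of pharyngeal and inner ear development, had 21.4 to 417 TPM in mutants (median 132), against 0.184, 0.161, 1.36, 0.117 and 0.115 TPM in siblings (log2 change 6.52 ± 0.84 SE, limma adjusted p = 3.58e-05). For drgx, a homeobox factor of sensory neurons, the values were 24.4 to 172 TPM in mutants (median 115), against 0.182, 0.531, 0.560, 0.230 and 1.52 TPM in siblings (log2 change 5.93 ± 0.81 SE, limma adjusted p = 6.88e-05). Both genes were close to 0 in siblings and present in all 8 mutant libraries. Neither tbx1 nor drgx would have passed the filter without the mutants, so this is no separate support. The gene sox2, a factor of neural and sensory progenitors, had 104 to 895 TPM in mutants (median 289), against 0.110, 44.4, 2.23, 1.53 and 62.7 TPM in siblings (log2 change 5.11 ± 0.91 SE, limma adjusted p = 0.00115). Its relative sox3 went the other way, at 0 to 8.04 TPM in mutants (median 1.4), against 214, 43.6, 53.8, 117 and 229 TPM in siblings (log2 change -5.37 ± 0.97 SE, limma adjusted p = 0.00122). Neither of the 2 Sox genes overlapped between genotypes. The other member that fell, sox11a, named after its values were seen, had 0 to 9.22 TPM in mutants (median 0.67), against 2.34, 23.1, 170.4, 126 and 4.58 TPM in siblings (log2 change -3.65 ± 1.09 SE, limma adjusted p = 0.0496), with overlap. With a single library left out, 2 members were called lower without mutant gill 3, sibling gill 1 or sibling gill 5, and 1 without any of the other 10. The factor gene gata3 was present in both genotypes, at 298 to 1207 TPM in mutants (median 705), against 279, 166, 160.1, 84.8 and 407 TPM in siblings (log2 change 1.80 ± 0.42 SE, limma adjusted p = 0.0125). The gata3 call was lost without sibling gill 4 (limma adjusted p = 0.0569, the highest with 1 library left out), and without the variance trend (limma adjusted p = 0.109). It was also lost with all 27 libraries in 1 fit, with the replicate number as a block and in the exact rank sum test. Also higher, and named after their values were seen, were the factors of sensory precursors pou4f1 and atoh1a and the neuroendocrine factor insm1a. Of these, atoh1a had 291 to 969.8 TPM in mutants (median 813), against 26.6, 176, 214, 3.53 and 121 TPM in siblings, with no overlap.

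Genes of serotonin synthesis rose. Among 7 tested monoamine genes 3 rose and 1 fell (list median 2.78). Tryptophan hydroxylase makes the first step, and tph1a had 138 to 851 TPM in mutants (median 414), against 28.6, 2.01, 1.06, 0.291 and 31.0 TPM in siblings (log2 change 5.86 ± 0.80 SE, limma adjusted p = 6.88e-05). The decarboxylase gene ddc, of the second step, had 13.6 to 153 TPM in mutants (median 79.7), against 0.157, 5.41, 0.676, 0.464 and 0.524 TPM in siblings (log2 change 4.97 ± 0.89 SE, limma adjusted p = 0.00121). Neither overlapped, and sibling gill 1 and 5 held most of the tph1a found in siblings. The second hydroxylase gene tph1b had 7.59 to 209.9 TPM in mutants (median 51.3) and 0.105 to 8.35 TPM in siblings (log2 change 3.95 ± 0.94 SE, limma adjusted p = 0.0131), with a slight overlap, and the exact rank sum test did not call it (adjusted p = 0.0845). The vesicular monoamine transporter gene slc18a2, named after its values were seen, had 0.715 to 125 TPM in mutants and 0 to 18.4 TPM in siblings and did not pass (limma adjusted p = 0.197). The member that fell was gch2, a GTP cyclohydrolase gene, with 0 to 5.3 TPM in mutants and 1.44 to 398 TPM in siblings (limma adjusted p = 0.0262). It no longer passed without sibling gill 1, 3, 4 or 5 (highest limma adjusted p = 0.0942, without sibling gill 3), and with library medians made equal it did not pass either.

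Of 10 tested genes for neuropeptides, granins and their processing enzymes, 2 rose (list median 0.85). The enkephalin precursor gene penka had 0.602 to 568 TPM in mutants (median 269), against 1.42, 0.277, 0, 0.802 and 0.397 TPM in siblings (log2 change 5.96 ± 1.24 SE, limma adjusted p = 0.00441). It was at most 1.42 TPM in siblings, but mutant gill 8 lay within the sibling range and mutant gill 4 was at 5.35 TPM, so the groups overlapped; an exact rank sum test did not call it (adjusted p = 0.0845). Chromogranin, a core protein of dense secretory granules, is encoded by chga, which had 73.8 to 582 TPM in mutants (median 336), against 159.5, 2.98, 68.3, 1.99 and 27.3 TPM in siblings (log2 change 3.74 ± 0.83 SE, limma adjusted p = 0.00735). Sibling gill 1 lay within the mutant range, and the exact rank sum test did not call chga (adjusted p = 0.0845).

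The machinery of vesicle release rose in 6 of 14 tested members, none fell, and the list median was 3.304. The table held 45 members of this list, and those not tested were below the filter. Of the tested members, snap25a and stxbp5a would not have passed it without the mutants, so count and median partly follow from the filter. The synuclein gene sncgb, a vesicle-associated protein of neurons, had 138 to 961 TPM in mutants (median 378), against 0.796, 2.79, 3.92, 1.68 and 3.66 TPM in siblings (log2 change 6.75 ± 0.66 SE, limma adjusted p = 1.06e-06), the largest rise of the named genes. The SNARE gene snap25a had 3.95 to 226 TPM in mutants (median 98.0), against 1.06, 1, 0.755, 0 and 15 TPM in siblings (log2 change 4.79 ± 0.98 SE, limma adjusted p = 0.00395), with sibling gill 5 inside the mutant range; the exact rank sum test did not call it (adjusted p = 0.0569). The calcium sensor gene syt1a had 29.4 to 104 TPM in mutants (median 75.4), against 4.03, 14.1, 0.713, 0.217 and 15.8 TPM in siblings (log2 change 3.74 ± 0.84 SE, limma adjusted p = 0.00836). The gene stxbp5a, encoding the syntaxin-binding protein tomosyn, had 18.1 to 117 TPM in mutants and 0.0913 to 1.41 TPM in siblings (log2 change 4.71 ± 0.90 SE, limma adjusted p = 0.00207). Neither of the last 2 genes overlapped. Genes handling acetylcholine, GABA and glutamate were mostly below the filter: 3 of 21 in the table were tested, and none was called.

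Calcium-binding proteins of the EF-hand family rose in 3 of 14 tested members while the list median was -0.27. The secretagogin gene scgn, of neuroendocrine cells, had 1130 to 3310 TPM in mutants (median 1843), against 66.4, 133, 143, 10.9 and 73.5 TPM in siblings (log2 change 4.92 ± 0.49 SE, limma adjusted p = 1.22e-06). A wide gap separated the genotypes. The other 2, hpcal4 and hpcal1, had adjusted p-values of 0.0355 and 0.0441 in limma. They lost their calls without 9 and 10 of the 13 libraries in turn (highest limma adjusted p = 0.0980 without sibling gill 4 for hpcal4 and 0.0989 without sibling gill 5 for hpcal1). The gene hpcal4 kept its call without mutant gill 1, 4 or 8 or sibling gill 1, and hpcal1 without mutant gill 1, 2 or 5.

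Potassium channel genes rose in 5 of 12 tested members, none fell, and the list median was 2.38. Without any of sibling gill 2, 3 or 4 or mutant gill 7, 3 were called. Of 50 members in the table, those not tested were below the filter. The A-type channel gene kcnd2 had 64.3 to 299 TPM in mutants (median 106), against 16.5, 11.6, 1.16, 1.17 and 9.38 TPM in siblings (log2 change 4.15 ± 0.75 SE, limma adjusted p = 0.00134). The channel beta subunit gene kcnab1a had 6.35 to 137 TPM in mutants (median 33.9), against 0.478, 0.419, 1.03, 1.41 and 0.300 TPM in siblings (log2 change 4.62 ± 0.95 SE, limma adjusted p = 0.00394). Mutant values lay above all sibling values for both, as for kcnma1a, the large-conductance calcium-activated channel gene, named after its values were seen, with 1.97 to 90.7 TPM in mutants and 0.217 to 1.44 TPM in siblings (limma adjusted p = 0.0375). For kcnq1.1, at 8.86 to 264 TPM in mutants and 0.676 to 23.9 TPM in siblings, the groups overlapped through sibling gill 2, and the exact rank sum test did not call it (adjusted p = 0.0569). The fifth, kcnh6a, lost its call without mutant gill 7 or sibling gill 2, 3 or 4 (limma adjusted p = 0.0291 with all libraries, and 0.0956 without sibling gill 3). Among calcium, sodium and mechanosensitive channels, 1 of 12 rose and 1 fell. The calcium channel subunit gene cacnb1 rose (limma adjusted p = 0.0244), but not without sibling gill 3, 4 or 5 (highest limma adjusted p = 0.0771, without sibling gill 4). The gene that fell was trpm5, a cation channel of taste and tuft cells in mammals, at 0 to 0.809 TPM in mutants (median 0.227), against 7.82, 25.6, 43.8, 2.34 and 23.5 TPM in siblings (log2 change -3.65 ± 0.76 SE, limma adjusted p = 0.00447). No mutant library reached 1 TPM, so trpm5 passed the filter only through the 5 siblings. Its lack of overlap was thus fixed by the filter.

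G-protein regulators went both ways. Of 13 tested, 3 rose and 2 fell, and the list median was -0.55. RGS proteins speed the switching-off of G proteins, and rgs5a had 588 to 1611 TPM in mutants (median 1049), against 18.2, 12.6, 16.4, 11.6 and 8.66 TPM in siblings (log2 change 6.20 ± 0.44 SE, limma adjusted p = 8.63e-09), with tight values in both genotypes. Its relative rgs4 had 113 to 349 TPM in mutants (median 183), against 0.345, 21.6, 10.7, 0.656 and 40.7 TPM in siblings (log2 change 4.61 ± 0.80 SE, limma adjusted p = 0.00101). In the other direction, rgs13 had 332 to 1296 TPM in mutants (median 851), against 1756, 2633, 3102, 6159 and 5191 TPM in siblings (log2 change -2.0999 ± 0.36 SE, limma adjusted p = 0.000821). The gene rgs14a had 0 to 0.912 TPM in mutants (median 0.395), against 42.7, 15.4, 82.6, 60.1 and 58.6 TPM in siblings (log2 change -5.10 ± 0.87 SE, limma adjusted p = 0.000821). For none of the 4 did mutant and sibling values overlap. For rgs14a this was fixed by the filter, which it passed only through the 5 siblings, as no mutant library reached 1 TPM. The rgs13 call did not hold without the variance trend (limma adjusted p = 0.0574). The G-protein gamma subunit gene gng13b had 2.31 to 216 TPM in mutants (median 78.8), against 0.546, 0, 0, 0 and 2.23 TPM in siblings (log2 change 5.54 ± 1.002 SE, limma adjusted p = 0.00127), with mutant gill 4 the lowest mutant, just above sibling gill 5.

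The remaining genes with the largest rises have varied roles. The tetraspanin gene tspan9b had 18.6 to 229 TPM in mutants (median 73.0), against 0, 0.635, 0, 0.306 and 0.302 TPM in siblings (log2 change 5.94 ± 0.86 SE, limma adjusted p = 0.000125). The smoothelin-like gene smtnl had 153 to 363 TPM in mutants (median 189), against 0.947, 14.2, 1.56, 2.93 and 1.45 TPM in siblings (log2 change 5.79 ± 0.68 SE, limma adjusted p = 1.51e-05). The inositol phosphate kinase gene itpk1a had 152 to 564 TPM in mutants (median 238), against 40, 3.75, 4.71, 2.71 and 1.15 TPM in siblings (log2 change 5.45 ± 0.71 SE, limma adjusted p = 3.75e-05). Each was high in all 8 mutant libraries and beyond every sibling. In the next 2 genes mutant gill 8 was low. The gene gramd2aa was at 1.48 TPM in mutant gill 8 against a mutant median of 80.2 TPM and a sibling range of 0 to 0.717 TPM. The neural gene npdc1a was at 1.59 TPM in mutant gill 8 against a mutant median of 285 TPM and a sibling range of 0.309 to 17 TPM. The small GTPase gene rasd1 had 285 to 1790 TPM in mutants (median 1185), against 5.71, 306, 10.24, 6.58 and 6.73 TPM in siblings (log2 change 5.76 ± 0.75 SE, limma adjusted p = 3.75e-05), with sibling gill 2 inside the mutant range. The disulfide isomerase gene pdia2 had 5.31 to 841 TPM in mutants (median 53.5) and 0 to 1.44 TPM in siblings (log2 change 5.64 ± 1.23 SE, limma adjusted p = 0.00652). The exact rank sum test did not call npdc1a (adjusted p = 0.0845) or rasd1 (adjusted p = 0.0569), and a pseudocount of 10 ended the call of pdia2.

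**Figure D3:**
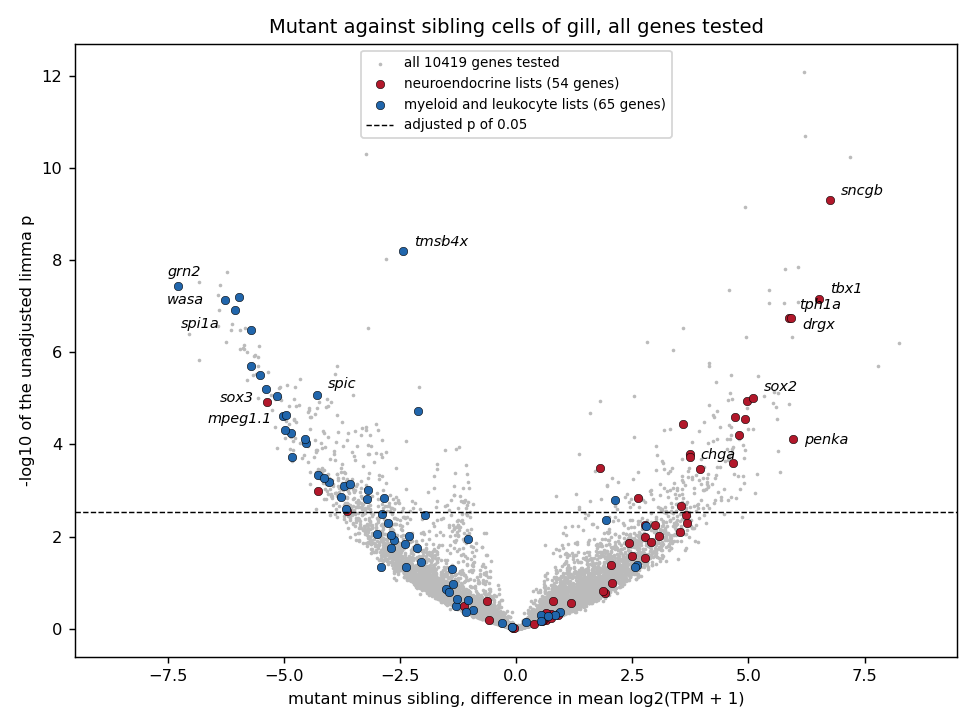
Each of the 10419 genes tested, by the difference in mean log2(TPM + 1) between mutant and sibling gill and by the -log10 of its unadjusted limma p; red marks members of 4 neuroendocrine lists (54 genes), blue members of 5 myeloid and leukocyte lists (65 genes), and the dashed line is the adjusted p of 0.05. Called blue members lie on the left save 1, pik3cg, and called red members lie on the right except for 3 on the left, among them sox3 at -5.37.

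Hypoxia genes were looked at because gill neuroepithelial cells sense oxygen. Of 22 tested, 1 rose and 1 fell (list median 0.68), shares near those of all genes; with library medians made equal, 4 were higher and 0 lower. The hypoxia-inducible factor gene epas1b had 58.3 to 218 TPM in mutants (median 111), against 11.0, 30.8, 1.13, 0.470 and 3.75 TPM in siblings (log2 change 4.32 ± 0.80 SE, limma adjusted p = 0.00164), with no overlap. The insulin-like growth factor binding protein gene igfbp1a had 1.60 to 302 TPM in mutants and 186 to 837 TPM in siblings (limma adjusted p = 0.0319), and lost its call without mutant gill 4 or sibling gill 1, 2, 3 or 4 (highest limma adjusted p = 0.101, without sibling gill 3). In the Notch pathway 1 of 22 fell, also a share near the 3.49% of all genes, the sugar transferase gene mfng, at 0 to 2.1 TPM in mutants (median 0.712), against 5.87, 28.7, 116, 35.2 and 113 TPM in siblings (log2 change -4.49 ± 0.96 SE, limma adjusted p = 0.00537), with no overlap. The gene mfng would not have passed the filter without the siblings. No gene of 45 for the cell cycle and none of 21 for heat shock passed in limma.

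Immediate-early genes, which respond within minutes to stimuli and to handling, had 4 of 53 members higher and 2 lower (list median 0.18); the share of lower members is near the 3.49% of all genes. The zinc finger gene egr4 had 813 to 2692 TPM in mutants (median 1473), against 113, 38.9, 202, 7.22 and 109 TPM in siblings (log2 change 4.58 ± 0.57 SE, limma adjusted p = 2.76e-05), with no overlap. The antiproliferation gene btg1 had 863 to 1602 TPM in mutants (median 1113), against 330.0, 373, 509, 325 and 362 TPM in siblings (log2 change 1.58 ± 0.30 SE, limma adjusted p = 0.0018), also with no overlap. The btg1 call did not hold without the variance trend (limma adjusted p = 0.106). The arrestin-related gene arrdc3a and the cytokine signalling suppressor gene socs3b also rose (limma adjusted p = 0.0133 and 0.0135), but arrdc3a did not pass without mutant gill 3, 6 and 8 (limma adjusted p = 0.0604) and socs3b did not in the exact rank sum test (adjusted p = 0.0845). The 2 lower members, dusp5 and mcl1b, named after their values were seen, both lost their calls without sibling gill 3 or 4.

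Ribosomal protein genes fell in 19 of 70 tested members, with a list median of -1.11, and their sum took 2.89 to 9.01% of all TPM in mutants and 8.70 to 11.97% in siblings. The gene rps2 had 1174 to 3670 TPM in mutants (median 1577), against 3784, 3078, 5629, 5224 and 3651 TPM in siblings (log2 change -1.22 ± 0.26 SE, limma adjusted p = 0.00593). The gene rpl4 had 289 to 932 TPM in mutants (median 493), against 1170, 1331, 1921, 1536 and 1714 TPM in siblings (log2 change -1.54 ± 0.34 SE, limma adjusted p = 0.00641). Mutant gill 8 had the highest ribosomal share among the mutants, within the sibling range. This count depends on the scaling and on single libraries: it was 0 with library medians made equal, where the list median was -0.67, 0 without the variance trend, and 4 without sibling gill 3 or 4. Of 82 nuclear genes of oxidative phosphorylation, 2 were called lower, a share near the 3.49% of all genes. These were cox6a2 and atp5mc3b, and their calls were lost without 6 and 10 of the 13 libraries in turn (highest limma adjusted p = 0.126 without sibling gill 3 for cox6a2 and 0.113 without sibling gill 4 for atp5mc3b).

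Marker lists of cell types that a gill suspension could hold were read in every library. The adhesion gene epcam, of surface epithelia and metaphocytes, was high throughout, at 1291 to 5420 TPM in mutants (median 3252), against 3440, 2253, 1182, 1683 and 4619 TPM in siblings (log2 change 0.27 ± 0.34 SE, limma adjusted p = 0.726). Keratinocyte genes of the surface layer summed to 6337 to 17477 TPM in mutants (median 9573) and 8540 to 15165 TPM in siblings (median 9614), and 1 of 15 passed. This was krt4, a surface keratin gene, which had 227 to 905 TPM in mutants (median 385), against 66.5, 27.9, 36.06, 22.5 and 26.6 TPM in siblings (log2 change 3.59 ± 0.50 SE, limma adjusted p = 9.61e-05), with no overlap. The list's sum overlapped widely between genotypes. Metaphocyte and uptake genes summed to 3765 to 11895 TPM in mutants and 4889 to 11321 TPM in siblings, with grn2 the 1 of 7 that passed. The other 6 tested genes did not pass. The list has 16 members, and those not tested were too low for the filter. Among its members, cd4-1 reached 1 TPM in sibling gill 4 alone. The deposited data call the cells progenitors, and a metaphocyte name would rest here on part of the list. Of its single genes, epcam was abundant in both genotypes and grn2 was high in siblings only, while no value is given for the receptor genes of uptake. The gene mpeg1.1, also present in siblings, belongs to the macrophage list.

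Blood and stromal lists held few tested genes. Of 6 for T and NK cells, gata3 rose and 3 fell, namely ccr9a, cd28 and tagapa. The calls of cd28 and tagapa were lost without sibling gill 4 or 5 (cd28, highest limma adjusted p = 0.0613, without sibling gill 4) and without sibling gill 2, 3, 4 or 5 (tagapa, highest limma adjusted p = 0.0635, without sibling gill 3). The defining T cell gene zap70, the B cell gene pax5, the neutrophil genes mpx and lyz and the endothelial genes kdrl and pecam1 were at 0 in all 13 libraries. Others of their kind reached single libraries. The T cell genes cd8a, lck and cd4-1 were at 33.8 TPM in mutant gill 3, 6.72 TPM in mutant gill 6 and 21.05 TPM in sibling gill 4. The endothelial gene cdh5 was at 24.4 TPM in mutant gill 6 and 11.3 TPM in sibling gill 5. Sibling gill 5 also held the neutrophil gene npsn at 29.2 TPM and the B cell gene cd79b at 10.5 TPM. Neutrophil genes summed to 25.01 to 488 TPM in mutants and 229 to 299.8 TPM in siblings, and the 1 of 5 called, mmp9, lost its call without 11 of the 13 libraries in turn, all but mutant gill 1 and sibling gill 3 (highest limma adjusted p = 0.132, without sibling gill 4). The Fc receptor chain gene fcer1gl, on the mast cell list, and swap70a, on the B cell list, fell (limma adjusted p = 0.0215 and 0.00589). The exact rank sum test did not call fcer1gl (adjusted p = 0.113), and swap70a did not pass with the replicate number as a block (limma adjusted p = 0.0654). The B cell marker cd79a had 0 to 56.1 TPM in mutants and 0 to 32.1 TPM in siblings. Endothelial, fibroblast, red cell, mucous and basal keratinocyte lists had no call among 3, 3, 1, 4 and 1 tested genes.

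Ionocytes, the salt-transporting cells of the gill, summed to 1383 to 16575 TPM in mutants (median 1645) and 1054 to 1584 TPM in siblings (median 1316), with a list median difference of 1.84. A single gene of 19 was called, a share near the 5.71% of all genes. It was the calcium pump gene atp2b1a, at 99.2 to 379.5 TPM in mutants (median 217), against 34, 39.8, 67.4, 67.0 and 54.4 TPM in siblings (log2 change 2.07 ± 0.51 SE, limma adjusted p = 0.0175). Mutant gill 3 and, at 4490 TPM, mutant gill 2 held the high sums, and the ammonium channel gene rhcgb was at 1947 and 525 TPM in those 2 libraries. The ionocyte factor gene foxi1 was at 0 in every library. The part of these cells in other results was not tested. Leaving mutant gill 3, 6 and 8 out together cannot decide it, since mutant gill 2 stayed in. Mutant gill 6 and 8 had ionocyte sums of only 1621 and 1383 TPM. In the fit without mutant gill 3, 6 and 8, the fallen cytoskeleton genes numbered 10, the raised fate factors 7 and the raised vesicle genes 7. Fewer passed in other lists, among them 5 lower in leukocyte receptor signalling, 3 lower among chemokine receptors, and 0 for the raised iron gene, the raised calcium channel gene, the fallen monoamine gene, and the fallen genes of the neutrophil and mast cell lists. Fallen ribosomal protein genes numbered 26.

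**Figure D4:**
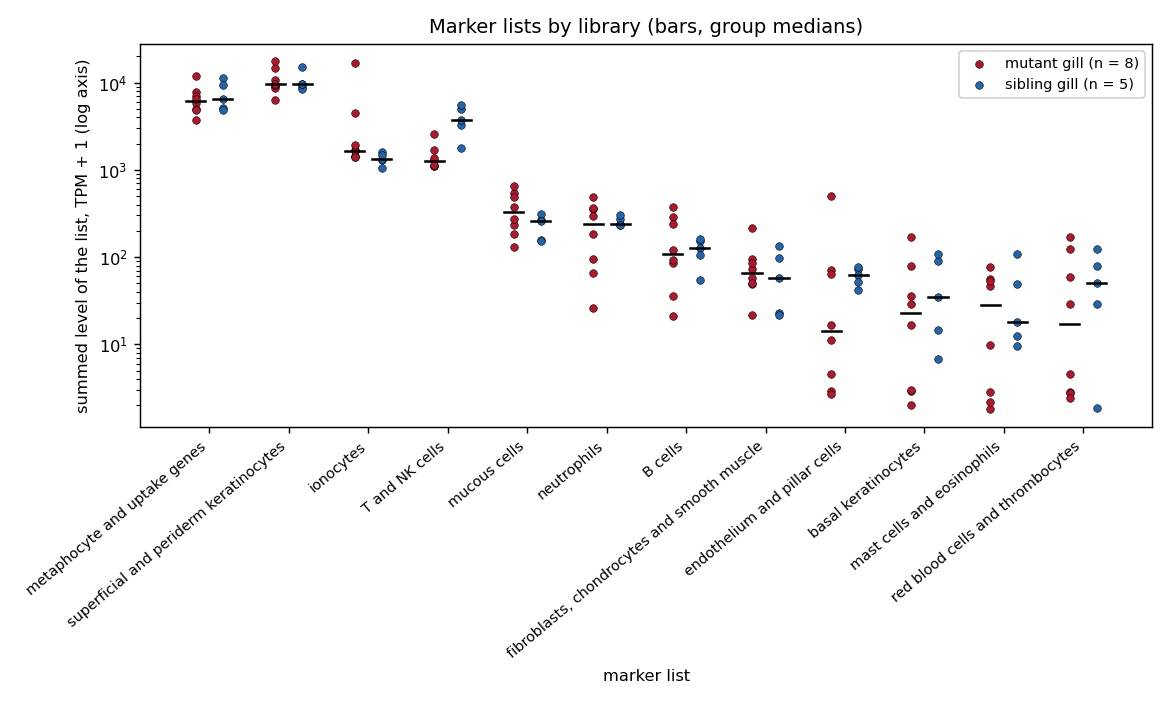
Summed level of each of 12 marker lists (TPM + 1, log axis) in every library of mutant gill (red, left, n = 8) and sibling gill (blue, right, n = 5); bars are group medians. The ranges of the genotypes overlap for all 12 lists. Mutant gill 3 is the high ionocyte point at 16575 TPM and mutant gill 6 the high endothelial point at 502 TPM.

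How far the lower genes went down was then read library by library. Of the genes called lower, 210 averaged at least 50 TPM in siblings. Their median level in single mutant libraries was 1.34 to 3.58% of the sibling mean in mutant gill 1 to 7 and 0.0839% in mutant gill 8, where 96 of the 210 were at exactly 0, against 4 to 21 in the other mutants. Conversely, 192 genes called higher averaged at least 50 TPM in mutants. In single sibling libraries their median level was 6.64, 8.13, 1.17, 0.769 and 8.76% of the mutant mean, lowest in sibling gill 3 and 4. Since these genes were chosen for the difference, the values describe its evenness among libraries and are no test of it.

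The same contrast could be set against epidermis, where 7 mutant and 7 sibling libraries were sorted by the same gate. Of the 595 genes called in gill, 564 had the same sign in epidermis. The share of all genes tested with the same sign in both tissues was not computed, so this count has no background beside it. In epidermis 380 of the 595 were also called with that sign, and none was called with the opposite sign. These 380 are 63.9% of the gill calls and 25.6% of the 1485 genes called in epidermis in a fit of all 27 libraries. Those 1485 are 14.3% of the genes tested. The 595 come from the fit of gill libraries alone, so the 2 counts are from unlike fits. In the fit of all 27 libraries 838 genes were called in gill. The difference of the mutant effect between the tissues was called for 5 of 10419 genes (0.0480%; limma interaction term), while 970 had an unadjusted p under 0.05. A missed call does not show that the effect was the same.

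Of the 5, the gene si:ch211-196h16.12, a clone name with no role given here, was named after its values were seen. It had 6167 to 17887 TPM in mutant gill (median 11966), against 576, 341, 82.8, 22.8 and 148 TPM in sibling gill, while it averaged 41.9 ± 30.8 TPM in mutant epidermis and 22.1 ± 9.21 TPM in sibling epidermis (SD, n = 7 each). Gill minus epidermis effects differed by 5.50 ± 0.78 SE on the log2 scale (limma adjusted p = 0.000468). All mutant gill libraries were above all sibling gill libraries, and this was the 1 gene called both in gill and for the tissue difference. The glycolysis regulator gene pfkfb3 averaged 105 ± 40.8 TPM in mutant gill (n = 8) and 25.5 ± 7.03 TPM in sibling gill (n = 5), but 8.37 ± 12.4 TPM in mutant epidermis and 54.2 ± 27.4 TPM in sibling epidermis (all SD; difference of effects 5.38 ± 0.99 SE, limma adjusted p = 0.0160). Directions were opposite in the 2 tissues, although the gill change alone did not pass (limma adjusted p = 0.0653).

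A pair of response genes differed less in gill than in epidermis. The AP-1 gene fosab averaged 2838 ± 1438 TPM in mutant gill, with 1626 ± 406 TPM in sibling gill, against 3304 ± 1273 TPM in mutant epidermis and 296 ± 156 TPM in sibling epidermis (SD; difference of effects -2.88 ± 0.49 SE, limma adjusted p = 0.00733). The suppressor gene socs3a averaged 999.96 ± 589 TPM in mutant gill and 406 ± 192 TPM in sibling gill, against 1280.4 ± 775 TPM in mutant epidermis and 45.3 ± 23.9 TPM in sibling epidermis (SD; difference of effects -3.50 ± 0.71 SE, limma adjusted p = 0.0402). For both, mutant levels were near each other in the 2 tissues and sibling levels were higher in gill. The fifth, si:dkeyp-82a1.4, another clone name noted after its values were seen, averaged 62.5 ± 55.5 TPM in mutant gill, against 85.0 ± 13.2 TPM in sibling gill. In epidermis it averaged 1.38 ± 1.19 TPM in mutants and 239 ± 81.8 TPM in siblings (SD; difference of effects 5.43 ± 1.05 SE, limma adjusted p = 0.0282).

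**Figure D5:**
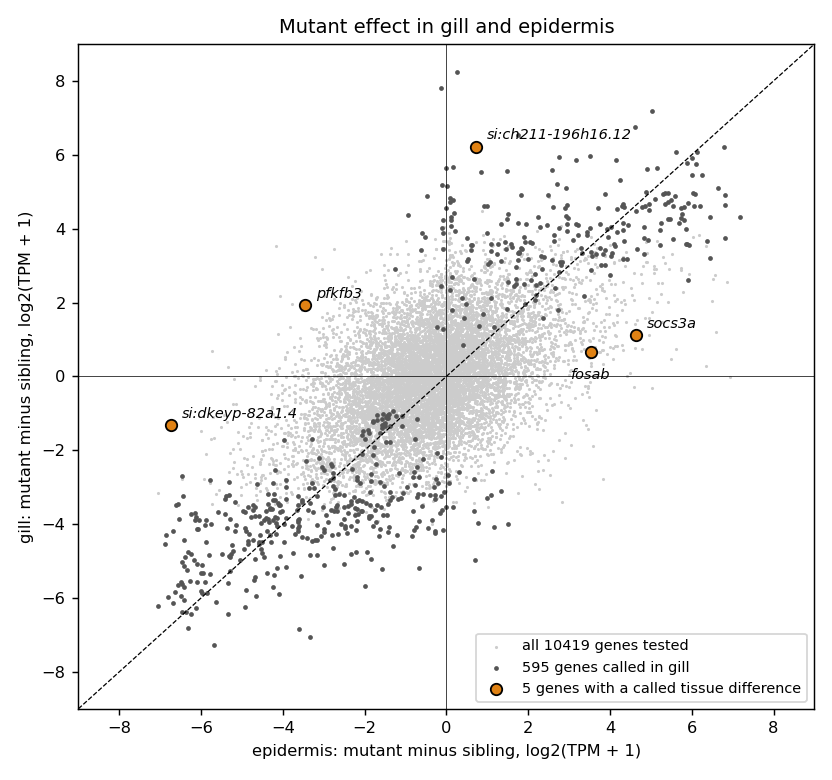
Mutant minus sibling difference in log2(TPM + 1) in gill (vertical) against that in epidermis (horizontal) for the 10419 genes tested; dark points are the 595 called in gill, orange points the 5 whose difference between tissues was called, and the dashed line marks equal effects. Of the dark points 564 have the same sign in both tissues (the share over all genes was not computed), and pfkfb3 lies in the upper left part with opposite signs.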

How the data were processed

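Values were the TPM table that the authors deposited, 32520 genes in 27 libraries; per the submitters' processing notes STAR, featureCounts and DESeq2 and the build GRCz11 were used, in roles not given in the sources used here. TPM keeps no depth, so no count test, interval or detection limit is given. Paralogues that are near copies may share reads.

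Genes at 1 TPM or more in at least 5 of the 13 gill libraries, 10419 in all, were tested on log2(TPM + 1), pseudocount 1, by moderated linear models with a variance trend (limma 3.58.1, R 4.3.3), with 1 mean per genotype, gill libraries alone and a Benjamini-Hochberg adjusted p threshold of 0.05 over all genes tested. Log2 changes are mutant minus sibling on the log2(TPM + 1) scale, which understates the change of low genes. The gene spic had a two-sided exact permutation test. The difference between tissues was the interaction term of a fit of all 27 libraries. The procedure was tested on simulated data in which only genes well expressed in siblings were changed, so rises from near 0 were not covered. Members, gene lists (26 of pathways, 12 of cell types) and the naming rule were chosen with earlier results of these data known. The rule names the 15 largest changes per direction averaging 10 TPM or more in 1 genotype, without clone-style names. It also names up to 4 members per list by smallest p, and fixed genes. Genes outside it are said to be named after their values were seen, except for single markers of cell types, which carry no such remark. Alternatives were other pseudocounts, filters and scalings, array weights, a covariate, a replicate block, other eBayes settings, a rank sum test and leaving out libraries. Of the identifiers, 29201 were in the reference table of gene names. No sequence or coordinate is given. Figures were drawn with matplotlib 3.10.9.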

Additional observations from a re-analysis of the deposited data

Results flagged for a closer look

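Among 66 groups of values (31 genes in each genotype on the log2(TPM + 1) scale, and 2 library measures), 14 had a library far from the others by Dixon's criterion, which chance alone meets in about 1 of 20 groups. In siblings the low library was sibling gill 1 for ccr9a (9.03), gpr132b (5.44), elovl5 (5.89) and ifnlr1 (5.36). In mutants the low library was mutant gill 8 for ncf1 (0), elovl5 (0), ifnlr1 (0), gramd2aa (1.31) and npdc1a (1.37), mutant gill 1 for atp6v0cb (2.18) and mutant gill 4 for gng13b (1.73). High siblings stood out for tbx1 (1.24, sibling gill 3), rasd1 (8.26, sibling gill 2) and pdia2 (1.29, sibling gill 4). All of these genes kept their calls with that library left out.

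The mutant effect differed between gill and epidermis for 5 genes by the interaction term in limma. The gill minus epidermis effect on the log2 scale was 5.50 for si:ch211-196h16.12, 5.43 for si:dkeyp-82a1.4, 5.38 for pfkfb3, -2.88 for fosab and -3.50 for socs3a.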

How the results depend on the processing

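Under the alternatives the number of genes called in gill, 595, was 721 and 473 with pseudocounts of 0.1 and 10, 647 with quantile normalization, 588 with library medians made equal, 877 with array weights, 838 with all 27 libraries in 1 fit and 407 by an exact rank sum test. Of the 595, 577 and 463 were still called with pseudocounts of 0.1 and 10, 539 with quantile normalization and 448 with library medians made equal. With array weights 593 were still called, with all 27 libraries 560 and by the rank sum test 305. The number called was 377 without the filter on low values, where 22113 genes were tested, and 353 of these were among the 595. It was 623 without mitochondrial features, an alternative chosen after seeing the data. With each library left out it ranged from 328 to 668, lowest without sibling gill 4 and 365 without sibling gill 3. The 5 differences between tissues became 17 and 13 with pseudocounts of 0.1 and 10 and 3 with quantile normalization. They numbered 3 with each library's detected genes as a covariate, and 3 to 23 with 1 library left out (the highest without mutant gill 8). With library medians made equal 6 were called, 3 of them among the 5. Of the 5 as reported, 3 were positive and 2 negative, while of these 6, 1 was positive and 5 negative. Over all genes the median difference of effects was 0.34 as reported and -0.56 with library medians made equal. Which genes differed, and in which direction, thus depended on the scaling. The causes were not tested. Deviations of same-numbered libraries in the 2 genotypes had correlations between -0.03 and 0.08, and those of other pairs lay between -0.06 and 0.05. The highest was that of mutant gill 2 with sibling gill 2, at 0.077. The labels do not say that the numbers pair libraries, and 5 such pairs cannot exclude it. With the replicate number as a block 341 genes were called in gill, 282 of them among the 595. In that fit 11 differed between tissues, 3 of them among the 5. The calls of syt1a, atp2b1a and swap70a, which held in every other fit, were lost with that block (limma adjusted p = 0.0571, 0.0872 and 0.0654). No gene examined changed direction. Of 92 called genes named by the rule, 75 kept their call with every library left out in turn, and 52 also under every other alternative. TPM without depth limits what can be said of genes near 0.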

Other observations

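The genes given here were named after their values were seen. The actin-capping gene capga had 316 to 1313 TPM in mutant gill (median 847), against 2.66, 58.6, 63.5, 2.70 and 29.4 TPM in sibling gill (log2 change 5.45 ± 0.68 SE, limma adjusted p = 2.76e-05), while its paralogue capgb had 0.071 to 13 TPM in mutants (median 2.36), against 5.75, 142, 64.3, 119 and 143 TPM in siblings (log2 change -4.14 ± 1.03 SE, limma adjusted p = 0.0177). All mutant libraries were above all siblings for capga, while sibling gill 1 lay within the mutant range for capgb. Among keratins, krt18b, of simple epithelia, had 0 to 78.7 TPM in mutants (median 7.13), against 237, 611, 499.9, 448 and 359.7 TPM in siblings (log2 change -5.81 ± 0.88 SE, limma adjusted p = 0.000214), the opposite direction to krt4.

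Other genes that rose include atp1b2a, a sodium pump subunit gene, with 229.7 to 392 TPM in mutants and 2.03 to 42.9 TPM in siblings; doc2b, a calcium sensor of exocytosis, with 108 to 297 TPM in mutants and 0.659 to 11.4 TPM in siblings; and spry2, an inhibitor of receptor tyrosine kinase signalling, with 564 to 1415 TPM in mutants and 41.3 to 251 TPM in siblings. Mutant and sibling values did not overlap for any of the 3, with limma adjusted p-values of 0.000357, 0.000125 and 0.00108.

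Genes that were called in gill and had a log2 change close to 0 in epidermis include the next 3, whose difference between tissues did not pass. For bmp2a, a secreted growth factor gene, the log2 change was 4.73 in gill and 0.08 in epidermis (limma adjusted p of the difference 0.176). For fez1, a gene of axonal transport, it was 4.77 in gill and 0.15 in epidermis (limma adjusted p of the difference 0.0840). For tppp, a tubulin-binding protein gene, it was 4.57 in gill and -0.01 in epidermis (limma adjusted p of the difference 0.176). The fate factor gene tbx1 had a larger epidermal value, with a log2 change of 6.52 in gill and 1.75 in epidermis (limma adjusted p of the difference 0.0992).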
